A study of Mus musculus with 18 samples.

Results

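The 10 core genes of the circadian clock were examined in whole mouse kidneys after ischemia: the activators *Arntl*, *Clock* and *Npas2*, the repressors *Per1*, *Per2*, *Per3*, *Cry1* and *Cry2*, and the nuclear receptor genes *Nr1d1* and *Nr1d2*. They were taken by name from the 45706 genes in the count tables, and all 10 had reads in all 18 kidneys and passed the filter on low counts in every comparison. The mice were young adult C57BL/6 males in 4 groups, with 5 kidneys labelled *Cxcl12* KO, 3 labelled *Cxcl12* control, 5 labelled *Myc* KO and 5 labelled *Myc* control. All 18 mice carried floxed *Cxcl12* or floxed *Myc* alleles and the Pax8rtTA transgene, received doxycycline in the drinking water, and had both kidneys made ischemic for 22.5 min and reperfused for 12 h. KO mice also carried TetOCre, which cuts out the floxed gene in the tubule cells in which Pax8 drives the transactivator, whereas controls lacked it. No uninjured kidney is among these groups. RNA was taken from whole kidney, so that other cell types kept the gene, and in such bulk samples fewer cells of a type and less RNA per cell cannot be told apart. The mice were littermates by the methods of the study, which also name a correction for batches by ComBat. Which kidneys shared a litter or a batch is not given in the sources used here, so no comparison was corrected for either, and p-values measure the spread between these mice. The hour of surgery and of kidney removal is not given in the sources used here.

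The circadian clock is a loop of transcription that runs in nearly every cell of the body, the tubule included. ARNTL pairs with CLOCK or with its relative NPAS2, binds E-box motifs and turns on the *Per* and *Cry* genes, whose proteins return to the nucleus and block that pair. The same pair turns on *Nr1d1* and *Nr1d2*, whose products REV-ERB alpha and REV-ERB beta repress *Arntl*, *Npas2* and other genes with ROR elements, and D-box factors such as DBP, TEF and HLF form a further arm. As a consequence, *Arntl* and *Npas2* transcripts normally peak when *Nr1d1*, *Nr1d2* and *Per3* transcripts are low, and the kidney is known as a strongly rhythmic organ.

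Promoter sequences were searched for the motifs of these arms. The 4 stretches printed here were chosen because each holds a match upstream of a gene whose values are given. They are RefSeq sequences of GRCm38.p6, written in the direction of the gene, with the motif in capitals. RefSeq promoters were found for 9 of the 10 genes (13 promoters), with none found for *Per2*, and the 250 bases before each start were searched on both strands. The E-box was searched as CACGTG, the D-box as TTATGTAA and the core of the ROR element as AGGTCA. *Per1* has an E-box 166 bases before a start (chr11:69098753-69098818, plus strand), and *Cry1* has one 60 bases before its start (chr10:85185079-85185144, minus strand). *Per3* has 2 D-boxes, 205 and 158 bases before its start (chr4:151044786-151044900, minus strand). *Nr1d2* has an AGGTCA core 77 bases before its start (chr14:18239148-18239213, minus strand).
Per1: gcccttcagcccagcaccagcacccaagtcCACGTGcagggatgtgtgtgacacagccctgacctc
Cry1: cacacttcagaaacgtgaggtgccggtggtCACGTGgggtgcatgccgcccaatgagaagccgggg
Per3: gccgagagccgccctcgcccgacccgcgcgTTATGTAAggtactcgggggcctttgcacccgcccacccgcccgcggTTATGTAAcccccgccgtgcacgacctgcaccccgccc
Nr1d2: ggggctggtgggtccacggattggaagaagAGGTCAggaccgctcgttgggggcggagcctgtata
Of all 32851 promoters in the table, 6.02% hold the E-box, 0.819% the D-box and 14% the AGGTCA core in the same window. *Per1* and *Clock* also hold the AGGTCA core on the other strand, 137 and 119 bases before a start, and the one of *Per1* is the tgacct near the end of its stretch, left in lower case. Not every gene of the scheme had its motif in the bases searched. The AGGTCA core was not found for *Arntl* or *Npas2*. CACGTG was not found for *Per3*, *Cry2*, *Nr1d1* or *Nr1d2*. The CRE, searched as TGACGTCA, was found in none of the 13 promoters and in 1.55% of all. The letters of these motifs can overlap, as in a CACGTG that follows AGGT, but no such overlap is in the stretches printed. A match is a description of the letters and not evidence of binding.

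Each kidney gave 12918220 to 29749500 reads on genes. In 6 kidneys (2 *Cxcl12* KO, 2 *Myc* KO and 2 *Myc* control) under 5% of the reads were unmapped, and they are called the deeper group here, which the labels do not name as a batch. Levels are given as read counts scaled by the TMM method to a common library size (CPM), and differences between groups are log2 fold changes from edgeR's quasi-likelihood test, adjusted by the Benjamini-Hochberg method over all genes tested. The deleted genes checked the labels. In *Myc* KO kidneys the level of *Myc* was 30.9 ± 3.9 CPM, against 94.8 ± 14.5 CPM in their controls (SD, n = 5 each, edgeR adjusted p = 8.82e-05). In *Cxcl12* KO kidneys the level of *Cxcl12* was 32.2 ± 6.1 CPM (SD, n = 5), against 53.4 ± 7.9 CPM in their controls (SD, n = 3). This difference did not pass the test (edgeR adjusted p = 0.0942). Every KO kidney lay below every control, and the ranges were separate for 9.68% of all genes, in either direction. Kidney markers were present in every sample, with the 6 markers of the proximal tubule summing to 3340 to 5310 CPM.

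Per exon length, *Per1* was the most abundant of the 10 and *Per3* the least. Over the 18 kidneys *Per1* had 56.6 ± 12.3 TPM (length-scaled reads as a share of all such reads, SD, n = 18), *Cry1* 34.6 ± 4.0 TPM, *Nr1d1* 30.6 ± 19.0 TPM and *Nr1d2* 29.2 ± 7.0 TPM. *Clock* had 22.9 ± 3.2 TPM and *Per2* 18.3 ± 4.4 TPM, levels whose spreads overlap. *Cry2* had 13.5 ± 2.4 TPM, *Arntl* 10.6 ± 2.2 TPM, *Npas2* 9.91 ± 3.67 TPM and *Per3* 3.05 ± 0.96 TPM. The least *Per3* in a kidney was 4.79 CPM. The count column used leaves out *Nr1d1* reads on exon bases shared with *Thra* on the opposite strand. Summing both strand columns gave 1.26 times as many *Nr1d1* reads, so its place in this order may differ by column.

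The genes differed widely in how much they varied between kidneys of one group. *Nr1d1* was the most variable, with a pooled SD of 0.74 on the log2 CPM scale within groups, a spread larger than that of 95.4% of all genes tested. *Npas2* followed with 0.50 and *Per3* with 0.46, above 87.0% and 83.7% of genes. *Nr1d2* (0.38) and *Arntl* (0.31) were intermediate. *Cry1* (0.15), *Clock* (0.19), *Per2* (0.20), *Cry2* (0.21) and *Per1* (0.26) were steadier. In single kidneys *Nr1d1* ran from 7.76 to 84.4 CPM, a 10.9-fold range, whereas *Clock* ran from 88.8 to 136 CPM, a 1.53-fold range.

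With the 4 groups ordered by mean CPM for each gene, the ranges of CPM overlapped in all 30 pairs of groups next to each other. How often this held over all genes was not counted. Groups further apart in the order can be separate, as given below for *Cry2* and *Per2*. *Myc* KO kidneys had the highest mean for *Arntl*, *Per1*, *Per3*, *Cry2*, *Nr1d1* and *Nr1d2*. For *Arntl* this was by little, at 28.34 CPM beside 28.26 CPM in *Cxcl12* KO kidneys. The same held for *Per3*, at 11.78 CPM beside 11.33 CPM in *Cxcl12* control kidneys. *Cxcl12* control kidneys had the highest mean for *Per2* and the lowest for *Arntl*, *Npas2*, *Per1*, *Cry1*, *Cry2*, *Nr1d1* and *Nr1d2*.

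**Figure D1:**
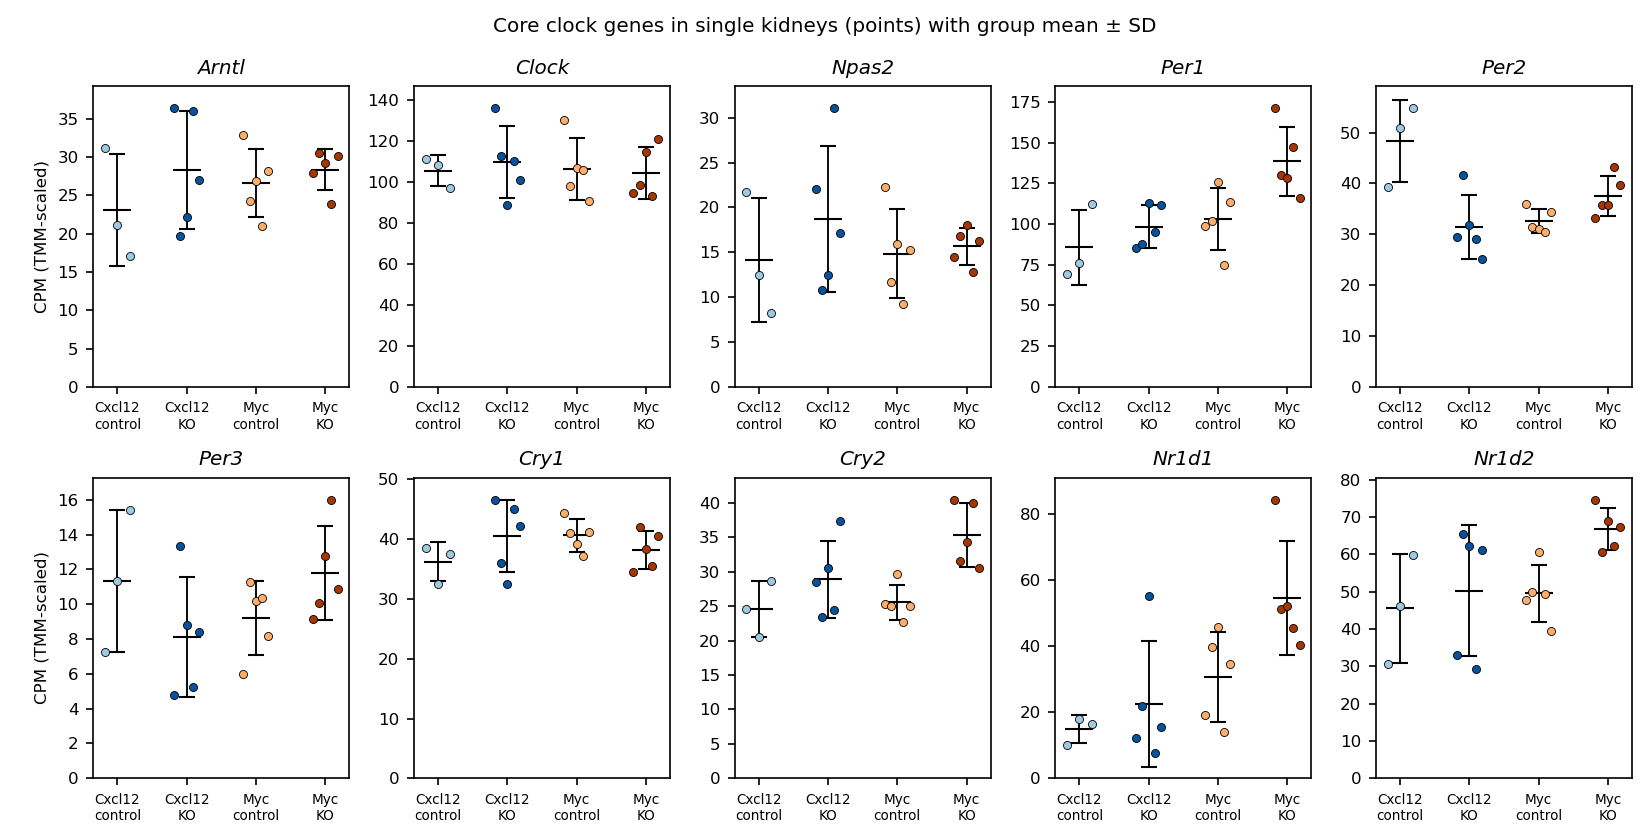
Level of each core clock gene in CPM (vertical axes, each from 0) in single kidneys (points) of the 4 genotype groups (horizontal axes), with the group mean (wide tick) and SD (bar). The *Nr1d1* points spread from 7.76 to 84.4 CPM, the *Cry2* points of *Myc* KO kidneys lie above all *Myc* control points, and the *Per2* points of *Cxcl12* control kidneys lie above all *Myc* control points.

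The first comparison asked whether loss of *Cxcl12* in tubule cells altered clock transcripts in the injured kidney. None of the 10 genes passed edgeR's test, with 1 at an unadjusted p under 0.05 and 1 called by DESeq2, and of all 15154 genes 0% passed (0 genes, against 1976 or 13% at an unadjusted p under 0.05 and 353 with DESeq2). The CPM ranges of KO and control kidneys overlapped for all 10, whereas they were separate for 9.68% of all genes, in either direction. Of the clock genes, 8 had positive and 2 negative log2 fold changes, with a median of 0.18 beside a median of 0.00 over all genes. At 3 control kidneys the intervals were wide, from -0.58 to 1.73 for *Nr1d1* and from -0.22 to 0.33 for *Clock* (95% intervals of the log2 fold change).

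*Per2* (chr1:91415982-91459324, GRCm38), a repressor of the loop, stood furthest from zero for its error. Its level was 29.5, 41.7, 31.8, 29.1 and 25.1 CPM in *Cxcl12* KO kidneys 1 to 5 and 39.2, 50.9 and 54.8 CPM in *Cxcl12* control kidneys 1 to 3. The groups overlapped by 1 KO kidney, replicate 2, which lay above the lowest control. Each of the 5 KO kidneys was under the mean of the controls, which was not counted over all genes. The log2 fold change was -0.62 (standard error 0.16, 95% interval -0.97 to -0.27) and did not pass the test (edgeR adjusted p = 0.148). It passed with DESeq2 (adjusted p = 0.024) and without the filter on low counts (edgeR adjusted p = 0.041).

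*Per3* (chr4:151003652-151044665), which carries the D-boxes shown above, had 4.79, 13.3, 8.78, 5.27 and 8.43 CPM in *Cxcl12* KO kidneys and 7.24, 11.4 and 15.4 CPM in controls. Its log2 fold change was -0.48 (95% interval -1.20 to 0.24, edgeR adjusted p = 0.558), and the groups overlapped over most of their range. *Nr1d1* (chr11:98767932-98775333) had 12.3, 21.9, 55.3, 7.76 and 15.4 CPM in KO kidneys and 10.1, 18.1 and 16.4 CPM in controls. One KO kidney, replicate 3, set its positive value, since without it the log2 fold change was -0.05 instead of 0.58. Of the *Nr1d1* exon bases, 8.55% are shared with *Thra* on the opposite strand, and the column used leaves out reads there. Summing both strand columns gave 1.26 times as many *Nr1d1* reads and a log2 fold change of 0.51.

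The activators *Arntl*, *Clock* and *Npas2* had log2 fold changes of 0.29, 0.05 and 0.40, and *Per1*, *Cry1*, *Cry2* and *Nr1d2* had 0.19, 0.16, 0.22 and 0.14, all with 95% intervals that span 0.

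The second comparison asked the same of *Myc*. *Cry2* was higher in *Myc* KO kidneys and was the 1 clock gene of 10 that passed, beside 1.65% of the 14936 genes tested (246 genes). At an unadjusted p under 0.05 were 5 of the 10, beside 21.9% of all genes. DESeq2 called 4 of the 10 and 1131 genes in all. *Cry2* (chr2:92403646-92434043) encodes a repressor of the ARNTL pair. It had 40.5, 31.6, 34.3, 39.9 and 30.5 CPM in *Myc* KO kidneys 1 to 5, against 25.3, 25.1, 29.7, 22.7 and 25.0 CPM in *Myc* control kidneys 1 to 5. Every KO kidney lay above every control kidney, which held for this gene alone of the 10 and for 5.97% of all genes tested, in either direction. The log2 fold change was 0.47 (standard error 0.10, 95% interval 0.24 to 0.69, edgeR adjusted p = 0.0408), a 1.38-fold difference.

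The *Cry2* call was close to the threshold. It was lost without each of the 5 KO kidneys and without *Myc* control kidneys 1, 2, 4 or 5 (edgeR adjusted p from 0.058 to 0.12), and kept without control kidney 3 (0.022), while the log2 fold change stayed between 0.41 and 0.52. With limma voom the adjusted p was 0.056, and without the filter on low counts edgeR gave 0.050.

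A further 4 clock genes had all 5 *Myc* KO kidneys above the control mean without passing the test. The share of all genes for which this held was not counted. *Nr1d2* had 74.6, 60.5, 68.8, 62.2 and 67.3 CPM in KO and 47.9, 50.0, 60.7, 49.5 and 39.5 CPM in control kidneys. Its groups overlapped only by the highest control, replicate 3, and the log2 fold change of 0.43 (standard error 0.10) had an edgeR adjusted p of 0.0608, against 0.0077 with DESeq2, 0.028 with the deeper group as a term and 0.019 without *Myc* control kidney 3. *Per1* (chr11:69095217-69109960), a target of the loop that also answers acute signals, had 171, 130, 128, 147 and 116 CPM in KO and 98.6, 102, 126, 74.9 and 114 CPM in control kidneys. The log2 fold change of *Per1* was 0.43 (95% interval 0.13 to 0.72, edgeR adjusted p = 0.116, and 0.044 with DESeq2).

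*Nr1d1* had 84.4, 51.3, 52.2, 45.5 and 40.3 CPM in *Myc* KO and 19.1, 39.9, 46.0, 14.0 and 34.7 CPM in *Myc* control kidneys. It had the largest log2 fold change of the 10 in this comparison, 0.83, with a wide 95% interval from 0.18 to 1.47 (edgeR adjusted p = 0.145, and 0.049 with DESeq2). Summed over both strand columns it was 0.76 (edgeR adjusted p = 0.15). *Per2* had 33.2, 35.7, 35.7, 43.2 and 39.6 CPM in KO and 36.0, 31.4, 31.0, 30.5 and 34.3 CPM in control kidneys, and its log2 fold change of 0.20 had an edgeR adjusted p of 0.204.

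The activators were near zero in the *Myc* cohort. *Arntl* differed by 0.09 (95% interval -0.16 to 0.34), *Clock* by -0.02 (-0.26 to 0.21) and *Npas2* by 0.08 (-0.35 to 0.50) on the log2 scale. *Cry1* differed by -0.09 (-0.26 to 0.08) and *Per3* by 0.37 (-0.04 to 0.78). The median over the 10 genes was 0.29 beside 0.00 over all genes, with 8 positive values.

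Genes of acute signalling and markers of other cells were examined in the same kidneys. The immediate early gene *Fos* rose in *Myc* KO kidneys, with 108 ± 17.5 CPM against 62.4 ± 15.2 CPM in controls (SD, n = 5 each), with a log2 fold change of 0.79 (edgeR adjusted p = 0.0408). The 4 endothelial markers summed to 551 to 770 CPM in *Myc* KO and 394 to 671 CPM in *Myc* control kidneys, and the 6 leukocyte markers to 112 to 164 and 73.3 to 148 CPM. None of the 4 endothelial and 5 tested leukocyte markers passed edgeR's test here (2 of each list had an unadjusted p under 0.05, as did 21.9% of all genes, and DESeq2 called 2 endothelial and 0 leukocyte markers), and none of either list was at 0 in every kidney. Their part in the *Cry2* result was not tested.

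Whether the effects of the 2 deletions differed from each other was tested as an interaction over all 18 kidneys. None of the 10 genes passed edgeR's test (2 at an unadjusted p under 0.05, as were 11.4% of all genes, and 1 called by DESeq2), beside 0.0692% of the 15903 genes tested (11 genes). *Per2* came nearest, with a difference of 0.82 between its log2 effects in the *Myc* and *Cxcl12* cohorts (standard error 0.18, 95% interval 0.44 to 1.20, edgeR adjusted p = 0.0676). It passed with DESeq2 (adjusted p = 0.0046), with the deeper group as a term (edgeR adjusted p = 0.033) and without *Cxcl12* KO kidney 2 (0.033). For *Per3* the difference was 0.84 (95% interval 0.01 to 1.67, edgeR adjusted p = 0.428).

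The control kidneys of the cohorts, which share no deleted gene, were compared in the same fit. *Per2* was lower in *Myc* control than in *Cxcl12* control kidneys, with a log2 difference of -0.56 (standard error 0.14, 95% interval -0.85 to -0.28, edgeR adjusted p = 0.0371). It was the 1 clock gene of 10 called, beside 1.99% of the 15903 genes tested. The 5 *Myc* control kidneys had 30.5 to 36.0 CPM, below all 3 *Cxcl12* control kidneys at 39.2 to 54.8 CPM, and no other clock gene separated these groups, beside 12.1% of all genes that did in either direction. Without *Cxcl12* control kidney 2 or 3, or *Myc* control kidney 2, 3 or 5, the call was lost (edgeR adjusted p = 0.16, 0.19, 0.084, 0.089 and 0.056). The *Cxcl12* control kidneys are the reference in both this comparison and the first one, and the *Cxcl12* KO kidneys had 31.4 ± 6.2 CPM of *Per2* beside 32.6 ± 2.4 CPM in *Myc* controls (SD, n = 5 each). The cohorts differ in the floxed gene and possibly in the day of surgery, which cannot be told apart. *Nr1d1* was 1.05 higher in *Myc* controls on the log2 scale (95% interval 0.01 to 2.09) without passing the test (edgeR adjusted p = 0.28).

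In the same comparison of controls the immediate early genes *Fos* and *Egr1* were higher in *Myc* controls, by 1.93 and 1.41 on the log2 scale (edgeR adjusted p = 0.00896 and 0.0151). Leukocyte markers summed to 73.3 to 148 CPM in *Myc* control and 50.6 to 51.6 CPM in *Cxcl12* control kidneys. Of the 5 tested, 4 had a positive and 1 a negative log2 difference. The 2 called, *Itgam* and *S100a8*, were higher (1.34 and 2.51 on the log2 scale, edgeR adjusted p = 0.0146 and 0.0215). Of the 2 markers of tubular injury, *Lcn2* was higher in *Myc* controls, at 1151 ± 374 CPM (SD, n = 5) against 523 ± 78.0 CPM (SD, n = 3, edgeR adjusted p = 0.0174). The other, *Havcr1*, was not called and its mean was lower in *Myc* controls. It was 506 ± 298 CPM there (SD, n = 5) against 624 ± 66 CPM in *Cxcl12* controls (SD, n = 3). Of the 6 markers of the proximal tubule, *Lrp2* was lower, at 758 ± 161 CPM (SD, n = 5) against 1176 ± 38 CPM (SD, n = 3, edgeR adjusted p = 0.038). Their part in the *Per2* difference was not tested.

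**Figure D2:**
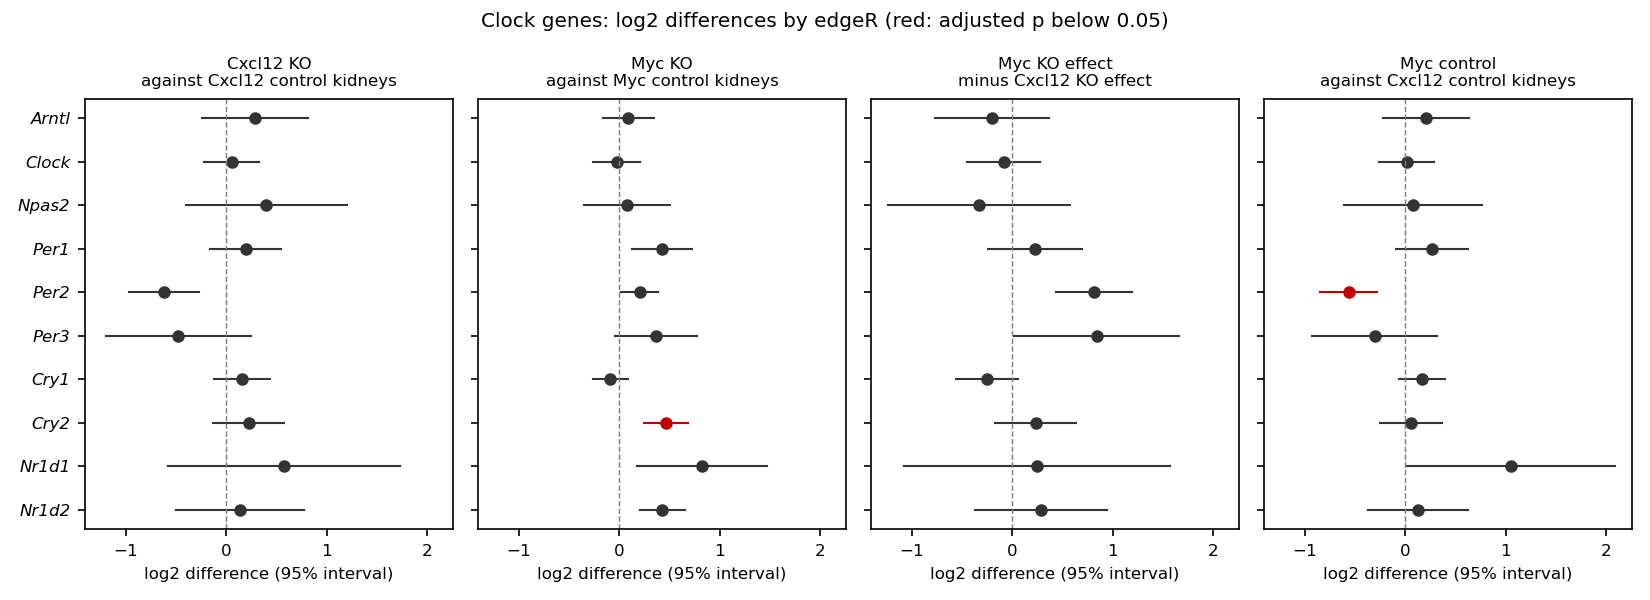
Log2 difference (horizontal axes) with its 95% interval (bars) for each clock gene (vertical axis) in the 2 KO comparisons, the difference between the KO effects, and the comparison of controls, by edgeR. The red points, with an adjusted p below 0.05, are *Cry2* at 0.47 in *Myc* KO kidneys and *Per2* at -0.56 in *Myc* control kidneys.

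The clearest pattern in the clock genes lay between kidneys of the same group. To describe it, the log2 CPM of each gene was taken relative to its group mean in each of the 18 kidneys, so that no genotype effect entered, and *Arntl* was correlated with each of the other 9 genes. Of the 9 relations, 4 passed a two-sided permutation test within groups after Benjamini-Hochberg adjustment over the 9: *Npas2* and *Cry1* rose with *Arntl*, and *Per3* and *Nr1d2* fell as it rose.

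*Arntl* (chr7:113207465-113314126) and *Npas2* (chr1:39193731-39363236), 2 activators of the loop on different chromosomes, moved almost as one. In *Cxcl12* KO kidneys 1 to 5 *Arntl* had 36.4, 19.7, 22.2, 36.0 and 27.0 CPM and *Npas2* 22.1, 10.8, 12.4, 31.0 and 17.2 CPM. In *Cxcl12* control kidneys 1 to 3 *Arntl* had 31.2, 21.1 and 17.0 CPM and *Npas2* 21.8, 12.4 and 8.18 CPM. The order of the kidneys was the same for both genes in the controls, and in the KO group it differed only in which of kidneys 1 and 4 was highest. In *Myc* control kidneys 1 to 5 *Arntl* had 32.8, 24.2, 26.8, 21.0 and 28.2 CPM and *Npas2* 22.2, 11.6, 15.9, 9.23 and 15.2 CPM. *Myc* KO kidneys lay closer together, at 23.9 to 30.6 CPM of *Arntl* and 12.8 to 18.1 CPM of *Npas2*.

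Pearson's r between *Arntl* and *Npas2* was 0.96 and Spearman's rho 0.95 over 18 kidneys (permutation p = 1e-05 for each, the smallest the 100000 permutations can give, and 9e-05 adjusted). It was 0.97 among the 8 kidneys of the *Cxcl12* cohort and 0.95 among the 10 of the *Myc* cohort. Without the 2 kidneys farthest from the median of *Arntl*, *Cxcl12* control 1 and *Cxcl12* KO 2, r was 0.95. Of 13730 genes ranked by r with *Arntl*, *Npas2* stood first.

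*Per3* ran the opposite way. Its lowest levels, 4.79, 5.27, 5.97 and 7.24 CPM, were in *Cxcl12* KO kidneys 1 and 4, *Myc* control kidney 1 and *Cxcl12* control kidney 1, which are the 4 kidneys with the most *Npas2*. Its highest, 16.0 and 15.4 CPM, were in *Myc* KO kidney 4 and *Cxcl12* control kidney 3, each the kidney with the least *Arntl* in its group. Pearson's r with *Arntl* was -0.92 and Spearman's rho -0.92 (permutation p = 4e-05 and 3e-05, adjusted 0.00018 and 0.000135), with -0.97 among *Cxcl12* kidneys and -0.79 among *Myc* kidneys, and -0.89 without the 2 farthest kidneys. Only 1 gene of the 13730 had a more negative r.

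*Nr1d2* (chr14:18204054-18239127) gave r = -0.79 and rho = -0.77 (permutation p = 0.0112 and 0.00627, adjusted 0.0252 and 0.0141) and ranked 5 from the bottom. This relation lay in the *Cxcl12* cohort, where r was -0.95, whereas it was -0.11 in the *Myc* cohort, and the difference between cohorts was not tested. *Nr1d2* had 33.2, 65.6, 62.2, 29.2 and 61.2 CPM in *Cxcl12* KO kidneys 1 to 5, so that the 2 kidneys with the most *Arntl* had about as little *Nr1d2* as *Cxcl12* control kidney 1, at 30.6 CPM. The adjusted permutation p was above 0.05 without *Cxcl12* KO kidney 5 (0.052) and without *Cxcl12* control kidney 1, 2 or 3 (0.085, 0.073 and 0.073). *Cry1* (chr10:85131700-85185064) gave r = 0.74 and rho = 0.78 (permutation p = 0.00692 and 0.00261, adjusted 0.0208 and 0.00783), with 0.72 among *Cxcl12* and 0.77 among *Myc* kidneys, and its adjusted permutation p was 0.052 without *Cxcl12* KO kidney 5.

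The other 5 genes did not pass. *Clock*, the usual partner of ARNTL, gave r = 0.53 (adjusted permutation p = 0.0657, and 0.038 on log2 TPM), *Per2* -0.53 (0.142) and *Nr1d1* -0.48 (0.142). The relation of *Clock* passed without *Cxcl12* KO kidney 2, *Myc* control kidney 4 or *Myc* control kidney 5 (adjusted permutation p = 0.02, 0.035 and 0.033). For *Nr1d1*, r was -0.74 among *Cxcl12* and 0.14 among *Myc* kidneys. It was -0.69 (adjusted permutation p = 0.026) without *Myc* control kidney 4, which had the least *Arntl* of its group at 21.0 CPM together with the least *Nr1d1* at 14.0 CPM. *Per1* gave -0.26 (0.437) and *Cry2* -0.10 (0.764). *Per1* and *Cry2* had an r of 0.75 with each other, *Per1* and *Nr1d1* 0.61, and *Per3* and *Nr1d2* 0.75, given here as descriptions over the same 18 kidneys.

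**Figure D3:**
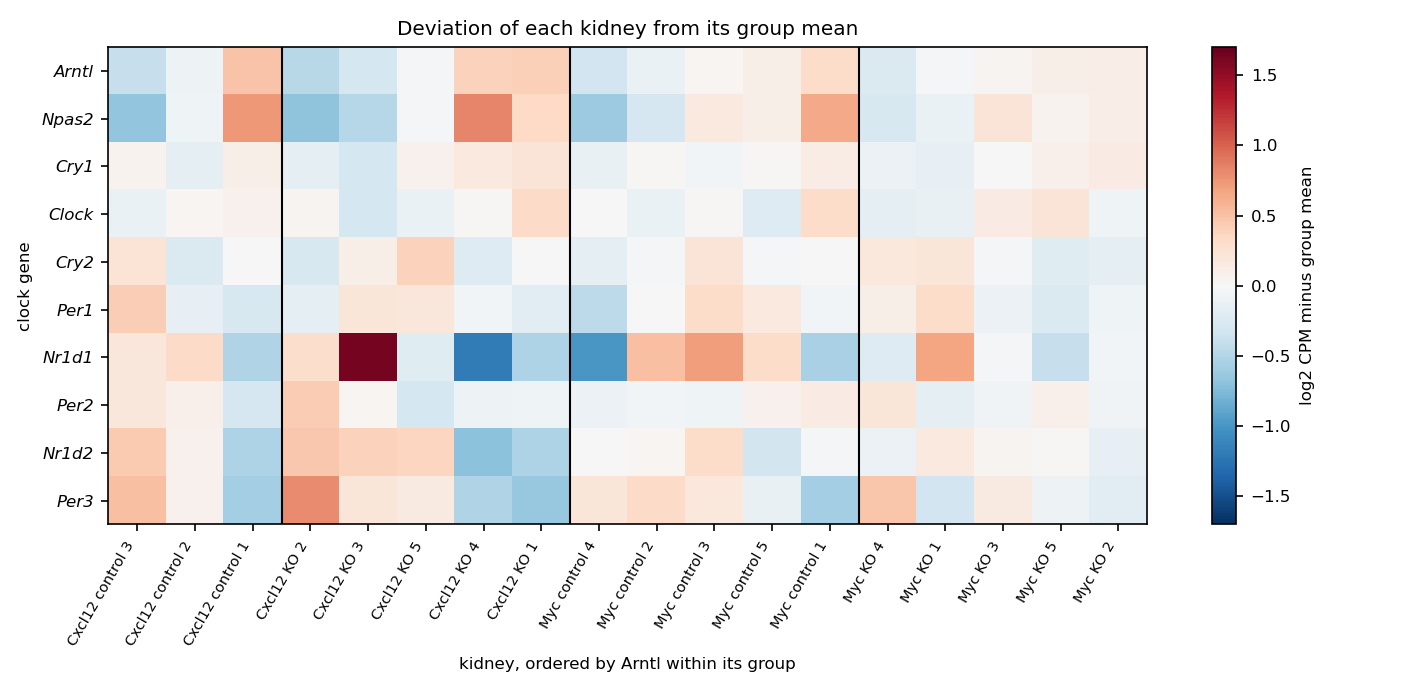
Log2 CPM of each clock gene (rows) minus the mean of its group in each of the 18 kidneys (columns, ordered by *Arntl* within each group, black lines between groups), red above and blue below the mean. From left to right within a group *Npas2* turns from blue to red and *Per3* from red to blue, and the *Nr1d1* row holds the strongest colours.

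**Figure D4:**
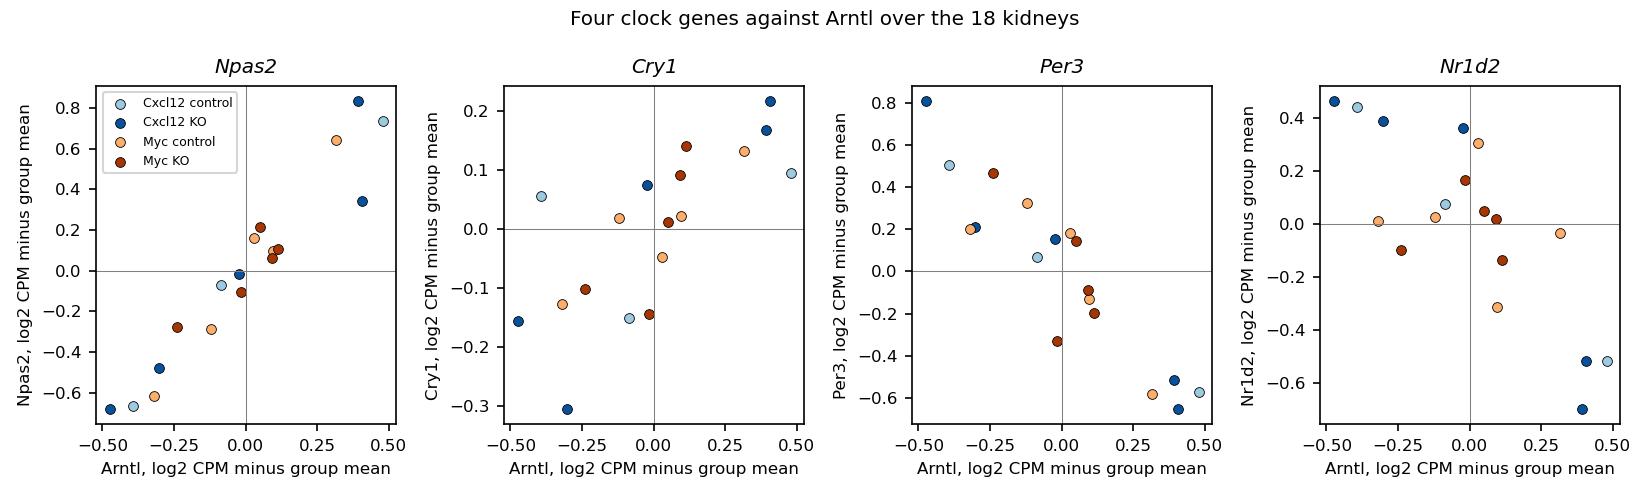
*Npas2*, *Cry1*, *Per3* and *Nr1d2* (vertical axes) against *Arntl* (horizontal axes), each as log2 CPM minus the group mean, with 1 point a kidney coloured by group. Pearson's r over the 18 kidneys is 0.96, 0.74, -0.92 and -0.79, and the points of *Nr1d2* in *Myc* kidneys show little slope.

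Relative to group means, *Arntl* had an r of 0.22 with the reads on genes, of -0.18 with the unmapped share, of -0.14 with the share of reads mapped to several places and of 0.32 with the share mapped outside genes over the 18 kidneys. Their part in these relations was not tested. The 6 deeper kidneys are 3 groups of 2, too few for a value of their own. Within the other 12 kidneys r with *Arntl* was 0.99 for *Npas2*, -0.91 for *Per3*, 0.63 for *Cry1* and -0.86 for *Nr1d2*. Of the cell type markers, the 6 of the proximal tubule had r from -0.27 to 0.39 with *Arntl*, the endothelial markers lay between -0.14 and 0.23, and the tested leukocyte markers between -0.07 and 0.02.

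The genes outside the 10 with the most similar and most opposite course to *Arntl* were found by the same r over 18 kidneys, among genes with a mean of at least 1 CPM, as a description without a test. *Tef*, a D-box factor of the clock, had the most negative r of all, -0.92, at 48.9 to 116 CPM. It was followed by *Ppp1r16b* (-0.86), *Garnl3* (-0.82), C130046K22Rik (-0.77) and *Ubash3b* (-0.75). Among the highest were *Mastl*, a mitotic kinase gene (0.82), the transporter gene *Slc17a4* (0.80), *Cyp4a14*, a fatty acid hydroxylase gene (0.78), and *Acsl1*, which activates fatty acids (0.78). *Cyp4a14* spanned 18.6 to 850 CPM over the kidneys.

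Of 18 other genes of the clock pathway, none passed edgeR's test in either KO comparison. In the *Cxcl12* cohort 4 had an unadjusted p under 0.05, beside 13% of all genes, and DESeq2 called 2. In the *Myc* cohort 9 did, beside 21.9% of all genes, and DESeq2 called 3. *Hlf* passed in the interaction (1.56 on the log2 scale, edgeR adjusted p = 0.0135) and was lower in *Myc* controls than in *Cxcl12* controls (-0.94, edgeR adjusted p = 0.0113). Its level was 28.0 ± 7.6 CPM in *Cxcl12* KO (SD, n = 5) and 63.7 ± 2.2 CPM in *Cxcl12* control kidneys (SD, n = 3). It was 33.2 ± 3.7 CPM in *Myc* control and 43.3 ± 8.2 CPM in *Myc* KO kidneys (SD, n = 5 each). The *Cxcl12* controls, with the highest mean, enter both comparisons that *Hlf* passed. *Hlf* had an r of only -0.15 with *Arntl*. The D-box factor gene *Dbp* had log2 fold changes of 0.03 for *Cxcl12* and 0.67 for *Myc* deletion (edgeR adjusted p = 0.98 and 0.185), *Tef* of -0.41 and 0.32 (0.438 and 0.174), and *Nfil3*, whose product represses D-box genes, of 0.39 and 0.50 (0.294 and 0.109). With *Arntl*, *Dbp* had an r of -0.74, and *Rora*, whose product activates *Arntl*, had 0.61. Over the 18 genes the median log2 fold change was 0.03 for *Cxcl12* and 0.30 for *Myc* deletion, beside 0.00 over all genes in each.

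Glucocorticoid and stress signals can reset *Per1* and *Per2* in the textbook scheme, and 10 genes that such signals induce were examined. In *Myc* KO kidneys *Fos* alone passed edgeR's test, beside 1.65% of all genes. There 3 of the 10 had an unadjusted p under 0.05, beside 21.9% of all genes, and DESeq2 called 2. In *Cxcl12* KO kidneys none passed. There 4 had an unadjusted p under 0.05, beside 13% of all genes, and DESeq2 called 0. The glucocorticoid targets *Klf9* and *Tsc22d3* had log2 fold changes of -0.05 and 0.26 for *Cxcl12* deletion and 0.07 and 0.14 for *Myc* deletion (edgeR adjusted p from 0.467 to 0.908). Their r with *Arntl* was 0.22 and 0.06, and the largest in this list was 0.63 for *Zbtb16*.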

How the data were processed

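RNA of 18 whole kidneys had been trimmed with Trimmomatic 0.32, aligned to GRCm38 and counted per gene with STAR 2.4.0, and the authors deposited raw counts without normalization. The strand-blind count column was used here, with gene positions and exon lengths from GENCODE M21. Genes were filtered with filterByExpr, scaled by TMM and tested with the quasi-likelihood test of edgeR 4.0.16 (R 4.3.3), per cohort for the KO comparisons and over all 18 kidneys for the interaction and the controls. Log2 CPM used a prior count of 2. Correlations used 100000 permutations within groups (numpy 2.4.6, scipy 1.17.1). Alternatives were RLE scaling, DESeq2 1.42.0, limma voom 3.58.1, no filter, both strand columns, a replicate block, the deeper group as a term and leaving out each kidney. The fits were tested on simulated data. No 2 kidneys of a group held the counts of 1 library (chi-square per degree of freedom at least 6.31 over 33 pairs).

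The 10 genes, the lists and the comparisons were chosen with earlier results of these data known. Besides the 10 genes, the text names the deleted genes, genes of the clock pathway and stress lists with an adjusted p under 0.05, *Dbp*, *Tef*, *Nfil3*, *Klf9* and *Tsc22d3*, and the 5 genes at each end of r with *Arntl*, of which 1 is not reported here. *Lrp2*, *Lcn2*, *Havcr1*, *Itgam*, *S100a8*, *Rora*, *Zbtb16* and *Thra* were named after their values were seen.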

Additional observations from a re-analysis of the deposited data

Results flagged for a closer look

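*Nr1d1* in *Myc* KO kidney 1 stood apart from its group. At 84.4 CPM it lay above the other 4 *Myc* KO kidneys at 40.3 to 52.2 CPM, with a gap of 0.73 of the range of the group against a critical value of 0.71 by Dixon's test. It was the 1 such value among the 30 sets of 5 kidneys examined, and chance gives about 1 in 20.

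The *Per2* log2 fold changes had opposite signs in the 2 cohorts, and neither passed (-0.62 for *Cxcl12* and 0.20 for *Myc*, edgeR adjusted p = 0.148 and 0.204). All 5 *Cxcl12* KO kidneys lay below and all 5 *Myc* KO kidneys above the mean of their controls. How many of all genes had all KO kidneys on 1 side of the control mean was not counted. The difference between the effects was 0.82 on the log2 scale and did not pass the interaction test (edgeR adjusted p = 0.0676). *Cxcl12* controls had the highest mean, 48.3 CPM, beside 31.4 CPM in *Cxcl12* KO, 32.6 CPM in *Myc* control and 37.5 CPM in *Myc* KO kidneys.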

How the results depend on the processing

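The log2 fold changes of the 10 clock genes kept their direction and their side of the threshold in 254 of 270 values under other tools, filters, scalings and columns, and in 506 of 540 with 1 kidney left out. With DESeq2, 353 genes were called in the *Cxcl12* and 1131 in the *Myc* comparison, 324 in the interaction and 801 between controls, and 1, 4, 1 and 1 clock genes. Without the filter on low counts, 214 genes and 1 clock gene were called for *Cxcl12* and 0 clock genes for *Myc*. With limma voom, 0 clock genes were called for *Myc*, and 3 genes in the interaction. With the deeper group as a term, 123 genes were called for *Cxcl12*, 972 genes and 2 clock genes for *Myc*, and 133 genes and 1 clock gene in the interaction. The same term turned *Clock* from 0.05 to -0.0838 for *Cxcl12*, from -0.08 to 0.0419 in the interaction and from 0.01 to -0.11 between controls, and *Npas2* from 0.08 to -0.0183 between controls. The causes were not tested.

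With a replicate block, 18 genes and 0 clock genes were called for *Myc* (*Cry2* adjusted p = 0.096 by edgeR), 1 gene in the interaction and 0 for *Cxcl12*, and *Npas2* turned to 0.00317 in the interaction. For the relations with *Arntl* the replicate block gave 3 that passed, with *Cry1* at r = 0.212 and *Per2* at 0.0436. The numbers were not taken to pair kidneys, since r of same-numbered kidneys over all genes ran from -0.211 to 0.402, and the block takes up degrees of freedom. Without subtraction of group means, r with *Arntl* was 0.0571 for *Per1*, 0.149 for *Cry2* and -0.46 for *Nr1d2*, which no longer passed.

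Leaving out 1 kidney gave 0 to 15 genes for *Cxcl12*, 21 to 877 for *Myc*, 1 to 75 in the interaction and 49 to 611 between controls. It gave 0 to 2 clock genes for *Myc*, 0 to 1 in the interaction and 0 to 1 between controls. Relations with *Arntl* that passed numbered 2 to 6, with *Cry2* from -0.342 to 0.0626. Small log2 values changed sign. *Clock* ran from -0.038 to 0.12 for *Cxcl12*, -0.0851 to 0.0602 for *Myc*, -0.14 to 0.00549 in the interaction and -0.0723 to 0.0645 between controls. For *Cxcl12*, *Nr1d1* ran from -0.0483 to 0.80 and *Nr1d2* from -0.0827 to 0.38. *Npas2* ran from -0.0522 to 0.27 for *Myc*, and *Per1* from -0.0137 to 0.37 in the interaction. Between controls *Npas2* ran from -0.19 to 0.53, *Cry2* from -0.05 to 0.18 and *Nr1d2* from -0.0993 to 0.37. *Per3*, the least abundant of the genes, had 95 or more reads in every kidney.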
